A study of Zea mays with 6 samples.

Results

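Described here are 5 maize genes of families that act on the abaxial (outer) side of plant organs, picked from those with less RNA in *ifc* than in WT ovaries. They are the YABBY genes *yab10* (GRMZM2G167824) and *yabby15* (GRMZM2G529859), the KANADI genes *kan1* (GRMZM2G056400) and *kan3* (GRMZM2G175827), and *ARF12* (GRMZM2G437460), whose closest *Arabidopsis* match in the deposited table is ARF3, also called ETTIN. Each has a single row among the 25368 rows, which carry 24453 gene identifiers. They were chosen by the same FPKM columns that are described below, from rows the study had called lower in *ifc*, so their own decrease is a description and no finding. The name *ifc* stands for incompletely fused carpels, and 3 libraries of such ovaries and 3 of WT ovaries were made from the inbred line Yu-A474 before pollination, on farm-grown plants without stress. The labels call these mutant and wild-type genotypes, while by the study's methods a normal and an *ifc* ovary stood side by side on one ear of the line, so the groups are ovary phenotypes on the same plants. The table gives 1 FPKM (fragments scaled to transcript length and library size) per phenotype, pooled by the authors over the libraries. No value here therefore has an error, no difference was tested, and the table does not give the depth behind a value. Directions are relative to the authors' scaling. In WT the row of GRMZM2G070931 was listed at 877143 FPKM, or 55.6% of the WT total, against 0 in *ifc*, and without counts a failed estimate in either phenotype and a true level cannot be told apart. Setting both totals equal, which that row decides, would add 1.13 to every log2 ratio and put the median of all rows above 2 FPKM at 1.102. It would leave just 106 of all 21093 rows above 2 FPKM lower in *ifc*. Those turned to higher include all 5 genes. Every YABBY, KANADI, auxin response factor, adaxial, KNOX, co-repressor and small RNA pathway row above 2 FPKM would be higher as well. Of these, 7 auxin response factor, 4 co-repressor and 4 small RNA pathway rows were higher on the authors' scaling already. The same scaling without that row moves ratios by -0.05.

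Lateral organs of flowering plants have an adaxial side that faces the stem and an abaxial side that faces away. In *Arabidopsis*, KANADI proteins, which carry a GARP DNA-binding domain, and YABBY proteins, which carry a zinc finger and a helix-loop-helix-like YABBY domain, act on the abaxial side. ETTIN and ARF4 are auxin response factors that work with KANADI, and a trans-acting small RNA restrains them on the adaxial side. Class III HD-ZIP proteins, AS1 and AS2 act on the adaxial side. Both sides meet at the carpel margins, where carpels fuse to close the ovary, and loss of ETTIN disturbs the pattern of the *Arabidopsis* gynoecium. In grasses the placement of YABBY transcripts can differ from that in *Arabidopsis*.

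Among the YABBY genes, *yabby15* had the highest level of the 5, at 16.2 FPKM in *ifc* and 24.6 FPKM in WT, a log2 ratio of -0.60. Its match is FILAMENTOUS FLOWER (FIL), which in *Arabidopsis* promotes abaxial fate and the growth of floral organs. *yab10* shares that match and was the lowest of the 5, with 1.31 FPKM in *ifc* and 2.37 FPKM in WT (log2 ratio -0.86). The pair thus differed 12.4-fold in level in *ifc* and 10.4-fold in WT. The WT value of *yab10* lies just above the 2 FPKM used as a minimum, and its *ifc* value lies below it.

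The KANADI pair lay closer together. *kan1* had 4.996 FPKM in *ifc* and 8.01 FPKM in WT (log2 ratio -0.68). *kan3* had 3.09 FPKM in *ifc* and 4.77 FPKM in WT (log2 ratio -0.62). Both match *Arabidopsis* KAN2, which acts redundantly with KAN1 in giving abaxial identity to leaves and carpels. Their ratio to each other was 1.61 in *ifc* and 1.68 in WT.

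*ARF12*, the ETTIN match, had 8.12 FPKM in *ifc* and 12.8 FPKM in WT, a log2 ratio of -0.65. ETTIN is an auxin response factor without the domain by which most of the family binds Aux/IAA repressors, and in *Arabidopsis* it sets the boundaries of style, ovary and gynophore. The 5 genes spanned a wide range of levels. Their ratios spanned a narrow range, but all 5 had been chosen as over 1.5-fold lower. Of all 21093 rows above 2 FPKM just 129 were over 2-fold lower, so a narrow range is no finding. The *ifc* value was 55.2% of the WT value for *yab10*, 62.3% for *kan1*, 63.6% for *ARF12*, 64.9% for *kan3* and 65.9% for *yabby15*. Summed, they had 33.7 FPKM in *ifc* and 52.5 FPKM in WT. In whole ovaries, fewer cells of a type and less RNA per cell cannot be told apart.

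**Figure D1:**
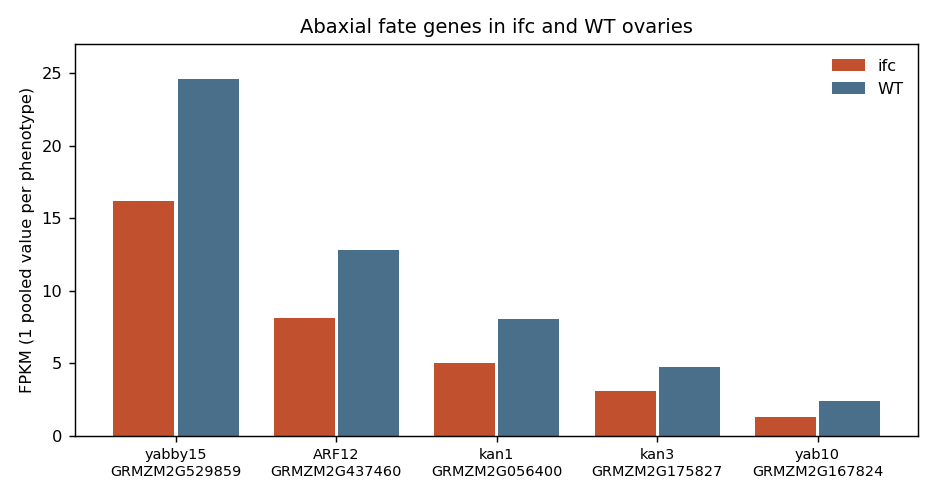
FPKM of the 5 abaxial fate genes (vertical axis) in *ifc* and WT ovaries, 1 pooled value per phenotype and no error bars, ordered by WT level. On the authors' scaling, which equal totals would turn round, each *ifc* bar is lower than its WT bar, from 16.2 against 24.6 FPKM for *yabby15* to 1.31 against 2.37 FPKM for *yab10*.

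In the genome the 5 genes lie apart, on 4 chromosomes (B73 RefGen_v3, as in the table). *yab10* spans chr1:225096997-225102396 on the plus strand with 2 annotated transcription start sites, and *kan1* spans chr1:215657188-215662587 on the minus strand, also with 2. *ARF12* lies at chr3:210346706-210354569, *kan3* at chr4:80099617-80112468 and *yabby15* at chr5:189249187-189252175, all on the plus strand. *yabby15* has 3 annotated start sites, against 1 each for *ARF12* and *kan3*.

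For *yabby15* the study lists a pair of qRT-PCR primers. They are shown because they name the stretch by which this gene was assayed apart from the sequencing, in lower case, 5′ to 3′, with no base singled out:
yabby15 forward: caccgggaggcgttca
yabby15 reverse: cgaagtggatgtgtgggaaat

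The genes flanking the 5 did not share one ratio. The nearest row on each side with more than 2 FPKM lay 2.89 to 229.6 kb away, and of these 10 rows 8 were lower and 2 higher in *ifc*, where 54.1% of all rows above 2 FPKM were lower, with log2 ratios of -0.78 to 0.19. Just 1 of them was over 1.5-fold lower, GRMZM2G045944 beside *kan3* (8.85 FPKM in *ifc* and 15.2 in WT, log2 ratio -0.78). The closest neighbour, GRMZM2G167787 beyond *yab10*, had 8.06 FPKM in *ifc* and 11.9 in WT (log2 ratio -0.56). *ARF12* was flanked by GRMZM2G159357 (13.5 FPKM in *ifc* and 13.1 in WT) and GRMZM2G142207 (3.57 in *ifc* and 4.17 in WT).

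All 5 genes passed the fold used for counting, which is over 1.5-fold lower in *ifc* with more than 2 FPKM in either phenotype. Of all 21093 rows with such an FPKM, 2.55% were over 1.5-fold lower in *ifc* and 4.13% over 1.5-fold higher. Among the 1091 of them that carry a transcription factor family, these shares were 4.12% and 6.32%. Since this fold was part of how the 5 were chosen, nothing is read from their count. Of these transcription factor rows, 10 had a lower ratio than *yab10*, 29 than *kan1*, 31 than *ARF12*, 36 than *kan3* and 41 than *yabby15*. Decreases of this size were commoner at low levels. Among rows within 1.5-fold of the WT level of *yab10*, 5.10% were over 1.5-fold lower in *ifc*, and the share was 3.82% around *kan3*, 2.88% around *kan1*, 2.18% around *ARF12* and 1.29% around *yabby15*, in the order of their WT levels. Rows below 2 FPKM in WT entered the set around *yab10* only through a higher *ifc* value, so the minimum holds its 5.10% down.

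Every YABBY row in the table was lower in *ifc* on the authors' scaling, and higher with equal totals. The family has 10 rows, all above 2 FPKM, and their median log2 ratio was -0.59. Over the whole table the median above 2 FPKM was -0.02, and 54.1% of the rows above 2 FPKM were lower. Without *yab10* and *yabby15*, which were chosen by this contrast, the median of the other 8 rows was -0.52. Of these 8, 3 were over 1.5-fold lower, beside 2.55% of all rows above 2 FPKM. Around the low WT levels of *yab10* and *kan3* that share was 5.10% and 3.82%, the first held down by the 2 FPKM minimum. The 3 rows, all at low levels, were *yab9* (GRMZM2G074543, 2.00 FPKM in *ifc* and 3.22 in WT, log2 ratio -0.68), *YAB6* (GRMZM2G074124, 2.67 in *ifc* and 4.44 in WT, -0.73) and GRMZM2G046829 (2.50 in *ifc* and 4.51 in WT, -0.85). GRMZM2G046829 matches INNER NO OUTER, which in *Arabidopsis* is needed for the outer ovule integument. All 3 had under 5 FPKM in both phenotypes. FIL was the match of 4 rows, and the fourth beside *yab9*, *yab10* and *yabby15* was *YAB11* (GRMZM2G141955), at 30.3 FPKM in *ifc* and 37.2 in WT (log2 ratio -0.30).

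The most abundant YABBY row in both phenotypes, *DL1*, and another abundant one match CRABS CLAW, a gene of carpel and nectary growth whose rice relative DROOPING LEAF specifies carpels. *DL1* (GRMZM2G088309) had 119 FPKM in *ifc* and 164 in WT (log2 ratio -0.46), and GRMZM2G102218 had 47.5 in *ifc* and 70.9 in WT (-0.58). GRMZM2G102218 lay just outside the fold, at 1.49-fold lower, and *yabby15* just inside it, at 1.52-fold lower. *YAB3* (GRMZM2G106204), which matches YAB2, had 13.7 FPKM in *ifc* and 17.6 in WT (log2 ratio -0.37). The row nearest to no difference was *YAB5* (GRMZM2G116646), with 57.7 FPKM in *ifc* and 58.8 in WT (-0.03). Over the family the FPKM summed to 293 in *ifc* and 387 in WT. *yabby15* made up 5.53% of the sum in *ifc* and 6.35% in WT, and *yab10* 0.447% in *ifc* and 0.612% in WT.

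Few KANADI rows reached 2 FPKM. Of 9 rows, 3 did so, namely *kan1*, *kan3* and *mwp1* (GRMZM2G082264, *milkweed pod1*), which acts in maize leaf polarity and matches KAN1. *mwp1* had 6.94 FPKM in *ifc* and 7.94 in WT (log2 ratio -0.19), a level close to that of *kan1* with a smaller difference. The other 6 rows had 0.371 to 1.42 FPKM in *ifc* and 0.519 to 1.96 in WT, and 5 of them were lower in *ifc*. They include 2 more KAN2 matches, GRMZM2G060834 (0.398 FPKM in *ifc* and 0.894 in WT) and GRMZM2G070865 (0.665 in *ifc* and 0.810 in WT), and GRMZM2G123308, described in the table as like FEATHERED (1.42 in *ifc* and 1.96 in WT). Of the 3 matches of KAN4, which acts in ovule integuments in *Arabidopsis*, GRMZM2G370425 had 0.816 in *ifc* and 1.42 in WT, the row of GRMZM2G031870 and GRMZM6G039492 had 0.371 in *ifc* and 0.637 in WT, and GRMZM2G034563 had 0.674 in *ifc* and 0.519 in WT. *kan1* and *kan3* held 25.8% and 16.0% of the summed KANADI FPKM in *ifc*, and 29.7% and 17.7% in WT. The other 21 rows above 2 FPKM of the G2-like family, to which KANADI genes belong, had a median log2 ratio of -0.20. Of them 17 (81.0%) were lower, beside 59.7% of all transcription factor rows, and 3 were over 1.5-fold lower, beside 4.12%. These were GRMZM2G159119 (6.74 FPKM in *ifc* and 11.98 in WT, -0.83), GRMZM2G016370 (6.57 in *ifc* and 10.5 in WT, -0.68) and AC155434.2_FG005 (13.5 in *ifc* and 20.3 in WT, -0.59). The most abundant, AC234520.1_FG003, had 99.6 in *ifc* and 85.2 in WT (0.23).

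*ARF12*, chosen in part by this fold, was the only one of 5 ETTIN matches past it. Of all rows above 2 FPKM, 54.1% were lower, 2.55% over 1.5-fold lower and 4.13% over 1.5-fold higher. GRMZM2G441325 (*ARF23*) had 6.69 FPKM in *ifc* and 9.36 in WT (log2 ratio -0.48), GRMZM2G030710 had 8.13 in *ifc* and 10.1 in WT (-0.31), and GRMZM5G874163 had 10.02 in *ifc* and 12.3 in WT (-0.29). *ARF11* (GRMZM2G056120) had 9.87 in *ifc* and 9.71 in WT (0.02). These 5 genes had similar levels. *ARF12* was the highest of them in WT, while only *ARF23* was lower than it in *ifc*. The remaining auxin response factors above 2 FPKM, 26 rows, had a median log2 ratio of -0.11, and 20 were lower and 6 higher. GRMZM2G159399, an ARF16 match, was over 1.5-fold higher (46.6 FPKM in *ifc* and 31.0 in WT, log2 ratio 0.59), and the most abundant was GRMZM2G035405 (*ARF18* in the table, an ARF6 match), with 181 in *ifc* and 192 in WT.

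**Figure D2:**
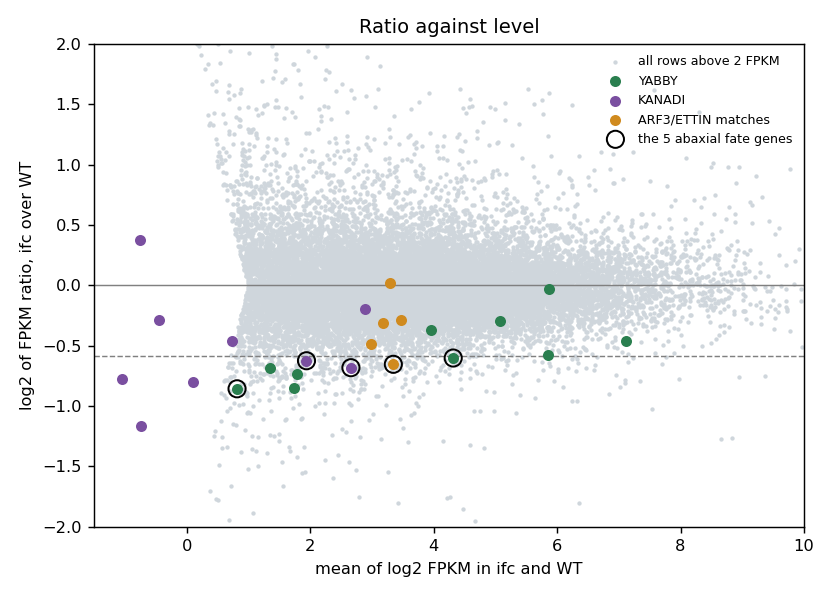
Log2 ratio of FPKM, *ifc* over WT (vertical axis), against the mean of the log2 FPKM of both phenotypes (horizontal axis) for YABBY, KANADI and ETTIN-match rows and, in grey, all rows above 2 FPKM. Circles mark the 5 genes, the dashed line is 1.5-fold lower, and 134 grey rows lie outside the axes, while 10 listed at 0 in a phenotype are not drawn. On the authors' scaling, though not with equal totals, YABBY rows all lie below 0, and the ratios of the more abundant ones reach up to -0.03.

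On the authors' scaling adaxial genes were lower in *ifc* too, and with equal totals they were higher. All 11 adaxial rows above 2 FPKM were lower, beside 54.1% of all rows above 2 FPKM. Their median log2 ratio was -0.29, with a range of -0.38 to -0.04. None was over 1.5-fold lower, beside 2.55% of all rows above 2 FPKM. The most abundant was *rough sheath2* (GRMZM2G403620), the AS1 match that keeps KNOX genes off in maize leaves, with 65.0 FPKM in *ifc* and 81.6 in WT (log2 ratio -0.33). The largest difference above 2 FPKM was that of the PHAVOLUTA match GRMZM2G023291, with 37.0 FPKM in *ifc* and 48.2 in WT (-0.38). The 1 row below 2 FPKM, GRMZM2G048297, which matches the HD-ZIP III gene CORONA, had 0.728 in *ifc* and 1.35 in WT (-0.89). The 8 class III HD-ZIP rows among them had a median of -0.31. The ratio of each of the 5 abaxial genes was lower than that of every adaxial row above 2 FPKM, but the 5 had been chosen for low ratios, and whether the abaxial families differ from the adaxial list was not tested. *mwp1*, *YAB3*, *YAB11*, GRMZM2G030710 and GRMZM5G874163 lay within the adaxial range, and *YAB5* and *ARF11* lay above it.

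Transcripts of genes of the trans-acting small RNA pathway, which restrains ETTIN and ARF4, were nearly level on the authors' scaling. The small RNAs themselves were not analysed. Of the pathway's 7 rows above 2 FPKM 3 were lower and 4 higher, where 54.1% of all rows above 2 FPKM were lower. Their median log2 ratio was 0.03, which equal totals would put at 1.16 and equal totals without GRMZM2G070931 at -0.01. On the authors' scaling none was past the fold. The SGS3 match GRMZM2G020187 had 150.5 FPKM in *ifc* and 141 in WT (0.09). Another SGS3 match, GRMZM2G163514, had 34.9 in *ifc* and 41.3 in WT (-0.24). Co-repressors through which YABBY proteins and auxin response factors can act, the LEUNIG, SEUSS and TOPLESS matches, had 17 rows, with a median of -0.07. On the authors' scaling 13 of these were lower and 4 higher, where 54.1% of all rows above 2 FPKM were lower. Equal totals would leave 0 of the 17 lower. Among them *ramosa1 enhancer locus2* (GRMZM2G042992) had 87.4 FPKM in *ifc* and 80.9 in WT (log2 ratio 0.11). The LEUNIG HOMOLOG match GRMZM2G036169 had 17.4 in *ifc* and 22.5 in WT (-0.37).

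KNOX genes, which maintain meristems, had 8 rows above 2 FPKM, with a median log2 ratio of -0.32. All 8 were lower on the authors' scaling, beside 54.1% of all rows above 2 FPKM. Equal totals made all 8 higher, but left just 106 of all 21093 rows above 2 FPKM lower. On the authors' scaling 1 of the KNOX rows was over 1.5-fold lower, beside 2.55% of all rows above 2 FPKM. This was GRMZM2G061101 (2.12 FPKM in *ifc* and 3.48 in WT, -0.71). GRMZM2G000743, the most abundant of them, had 42.8 in *ifc* and 47.8 in WT (-0.16). Genes of carpel patterning that act beside ETTIN in *Arabidopsis* had 10 rows above 2 FPKM, with a median of -0.04. Of these 8 were lower, beside 54.1% of all rows above 2 FPKM. With the 2 rows below 2 FPKM, 9 were lower and 3 higher. There AC216872.3_FG002, which matches NGATHA3, was over 1.5-fold lower (2.03 FPKM in *ifc* and 3.15 in WT, log2 ratio -0.64). Another NGATHA3 match, GRMZM2G098443, lay below 2 FPKM and went the other way, with 0.608 in *ifc* and 0.0385 in WT. The TOUSLED match GRMZM2G172132 had 44.1 in *ifc* and 44.6 in WT. The WOX1 match GRMZM6G260565, described as WUSCHEL-related homeobox 4 and of a family that acts in margin growth, had 1.85 FPKM in *ifc* and 2.175 in WT. The WOX3 match GRMZM2G069028 lay below 2 FPKM and went the other way, with 0.652 in *ifc* and 0.523 in WT.

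**Figure D3:**
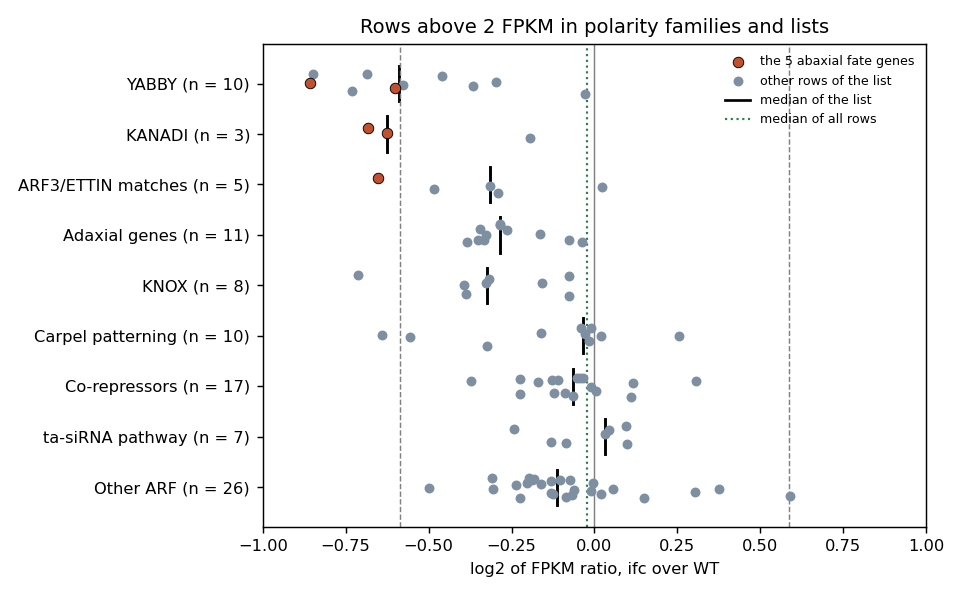
Log2 ratio of FPKM, *ifc* over WT (horizontal axis), for each row above 2 FPKM in 9 families and lists (rows of the plot). Larger outlined points are the 5 abaxial fate genes, short vertical bars are list medians, dashed lines mark 1.5-fold either way and the dotted line is the median of all rows. The medians of the YABBY, KANADI and ETTIN-match lists include the 5 genes chosen for low ratios, without which the YABBY median is -0.52 and the KANADI list holds a single row at -0.19. YABBY, adaxial and KNOX rows all lie below 0 on the authors' scaling, though not with equal totals.

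Rows of a list of genes active in carpels and ovules had RNA in both phenotypes. The list includes SEP2, SEP3, AGL6 and ANT matches, and not all of its genes are particular to these organs. Apart from the CRABS CLAW and INNER NO OUTER matches, which are YABBY genes, 20 such rows had 0.465 to 695 FPKM in *ifc* and 0.226 to 754 in WT, summing to 3428 in *ifc* and 3767 in WT, and none was listed at 0. Above 2 FPKM 16 of 18 were lower in *ifc*, where 54.1% of all rows were, with a median log2 ratio of -0.11. The most abundant, the SEP3 match GRMZM2G159397, had 695 in *ifc* and 754 in WT (-0.12), and the lowest ratio was that of another SEP3 match, GRMZM2G102161 (195 in *ifc* and 288 in WT, -0.56). The 6 matches of AGAMOUS and SHATTERPROOF2 summed to 1339.7 FPKM in *ifc* and 1424 in WT. Both rows matching anther regulators were under 1 FPKM. The 12 green-tissue rows summed to 471 FPKM in *ifc* and 511 in WT. A single row was found by the word zein, GRMZM2G094532, described as a zein protein-body membrane protein and not as a zein. Its FPKM was 19.97 in *ifc* against 21.4 in WT. Silk rows, 2 in number, were below 4 FPKM. Cytosolic ribosomal protein rows went the other way, with 155 of 185 above 2 FPKM higher in *ifc* and a median of 0.17. The part of these shifts in the values of the 5 genes was not tested.

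The transcription factor rows most like each gene, by distance over the 2 pooled log2 values, came from other families. For *yab10* they were GRMZM2G346920 of the ZF-HD family (1.39 FPKM in *ifc* and 2.45 in WT, distance 0.099) and *Glossy15* (GRMZM2G160730, AP2 family, 1.21 in *ifc* and 2.22 in WT, 0.15). For *yabby15* they were *MYB9* (GRMZM2G088783, 16.7 in *ifc* and 25.8 in WT, 0.082) and *Teosinte glume architecture1* (GRMZM2G101511, SBP family, 18.1 in *ifc* and 23.8 in WT, 0.17). *kan1* was nearest to the bHLH gene GRMZM2G111146 (4.83 in *ifc* and 7.42 in WT, 0.12) and the SBP gene GRMZM2G160917 (5.47 in *ifc* and 8.17 in WT, 0.13). *kan3* was nearest to the MYB48 match GRMZM2G305856 (3.22 in *ifc* and 4.57 in WT, 0.086) and *Dof3* (GRMZM2G179069, 3.31 in *ifc* and 4.65 in WT, 0.10). *ARF12* was nearest to GRMZM2G423292 of the GeBP family (8.29 in *ifc* and 13.4 in WT, 0.070) and the Dof gene GRMZM2G140694 (8.39 in *ifc* and 11.8 in WT, 0.13). With 2 values a small distance says no more than that level and ratio are similar.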

How the data were processed

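RNA-seq of maize ovaries covered 3 *ifc* and 3 WT libraries. Reads were aligned to B73 RefGen_v3 with TopHat2, and those in exons were pooled for each phenotype. Cufflinks and Cuffdiff then gave the FPKM deposited by the authors, under quartile normalization and with multi-mapped reads and fragment bias corrected. Reads of near-identical paralogs may be split by that correction. The table also holds the authors' fold changes, p-values and calls, which were not used, and counts are not among its columns.

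Log2 ratios (*ifc* over WT) were computed from the FPKM without a pseudocount. A row was counted past the fold when over 1.5-fold different with an FPKM above 2 in either phenotype. Family rows were found by transcription factor family, *Arabidopsis* match or description, and 3 rows of ADP-ribosylation factors, which share the symbol ARF, were left out. The other lists used *Arabidopsis* matches, apart from the zein and ribosomal protein lists, which used descriptions. The members and lists were chosen with earlier results of these data known. Named are the 5 genes, all YABBY, KANADI and ETTIN-match rows and, in each other list, rows past the fold and those with the highest level or largest ratio above 2 FPKM (the green-tissue, silk and ribosomal lists are only summarised), and per gene the 2 nearest transcription factor rows. Adaxial and WOX rows below 2 FPKM are named as well, as is an NGATHA3 match below it. The gene names *yab10*, *yabby15*, *kan1* and *kan3* are synonyms in RefSeq (Zm-B73-REFERENCE-NAM-5.0), where 5 of the 5 genes and 22 of all 24 family rows matched. Protein and promoter sequences were not analysed here, and a list of auxin transport genes is not reported here. Scripts were tested on simulated data and run with Python 3.11.15, numpy 2.4.6, pandas 2.3.3 and matplotlib 3.10.9.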

Additional observations from a re-analysis of the deposited data

How the results depend on the processing

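The deposited table holds 1 pooled column per phenotype, so it allowed no paired analysis and no replicate could be left out. The paper also calculated FPKM for single samples, which were not used here. The 5 genes, all lower past the fold, depended on the scaling and on the level. When FPKM was scaled to equal totals, which the row of GRMZM2G070931 decides, the log2 ratios became 0.27 for *yab10*, 0.44 for *kan1*, 0.47 for *ARF12*, 0.50 for *kan3* and 0.52 for *yabby15*, and 0 of the 5, 0 YABBY, 0 KANADI and 0 auxin response factor rows were past the fold lower, while 20471 rows in all were past it (55 lower and 20416 higher, against 538 and 871). Without that row in the total, the 5 genes kept their side of the fold. On log2 of FPKM + 1, *yab10* (-0.55), *kan3* (-0.49) and *yabby15* (-0.57) no longer passed, leaving 2 of the 5 genes, 1 YABBY row and 1 KANADI row. With the median of all rows set to 0, *yabby15* was at -0.58 and fell just short. A fold above 2 left 0 of the 5 genes, 0 YABBY, 0 KANADI and 0 auxin response factor rows, and 431 rows in all. A minimum of 10 FPKM left 2 of the 5 genes, 1 YABBY and 0 KANADI rows, and 578 in all, and no minimum gave 5 KANADI rows and 2747 in all.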
